A study of Homo sapiens with 15 samples.

Results

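The 8 genes described here encode the subunits of the cytosolic chaperonin CCT, also called TRiC. They were chosen by symbol, as the rows of the deposited expression table named TCP1, CCT2, CCT3, CCT4, CCT5, CCT6A, CCT7 or CCT8, and all 8 were found among its 12261 genes. The choice by name used none of the measured values. The genes were followed in total RNA of 3 lines of HEK-293 Trex cells and in RNA that was purified together with UPF1. HEK-293 is an established line from human embryonic kidney, and its Trex form lets doxycycline switch on an introduced gene.

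CCT is a large protein-folding machine built from a pair of stacked rings, and each ring holds a single copy of every subunit. The rings close over newly made proteins and use ATP to fold them. Actins and tubulins are its best known substrates, together with WD-repeat proteins such as G protein beta subunits and the cell-cycle activators CDC20 and FZR1. Prefoldin passes unfolded chains to it, phosducin-like proteins act with it, and tubulin cofactors take over folded tubulins. UPF1 is an RNA helicase required for nonsense-mediated mRNA decay, which degrades transcripts whose translation stops too early. Its isoforms 1 and 2 differ in the length of a regulatory loop in the helicase core.

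There were 5 groups of 3 libraries. The cells expressed CLIP-tagged UPF1 isoform 1 (UPF1-1), the tagged isoform 2 (UPF1-2) or GFP, which served as the control, and all of them received 200 ng/mL doxycycline. Total RNA was depleted of ribosomal RNA and sequenced from the UPF1-1, UPF1-2 and GFP lines. RNA bound to affinity-purified UPF1 (IP) was sequenced from the UPF1-1 and UPF1-2 lines. Each construct was in a line of its own, so that the effect of a construct and a difference between lines cannot be told apart. A purification from GFP cells was not analysed here, and recovery in the IPs was measured against total RNA of the same isoform and replicate number.

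Values are TPM, transcript abundances corrected for length and scaled to the same total in each library. Differences are log2 values from a linear model fitted across all genes with limma, after library medians had been set equal and with the replicate number kept as a block. An adjusted p below 0.05, by the Benjamini-Hochberg method, was taken as a call. In a bulk measurement of this kind, a change in RNA per cell and a change in the share of cells that carry it cannot be told apart.

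Of the HEK-293 cell markers, 5 of 6 had a row in the table, led by VIM with 142 ± 19.2 TPM in GFP total RNA (SD, n = 3). None of the 6 marker genes for other cell types (0 of 6) had one. UPF1 itself (ENSG00000005007) was the induced gene, and its total RNA stood at 106, 94.5 and 186 TPM in UPF1-1 cells and at 68.9, 72.7 and 171 TPM in UPF1-2 cells, against 3.24, 3.80 and 8.57 TPM in GFP cells. Replicate 3 stood apart in every group. Its median gene was at 2.35 to 2.96 TPM in total RNA, against 1.39 to 1.76 TPM in replicates 1 and 2, and at 18.4 to 19.9 TPM in the IPs, against 10.9 to 11.8 TPM. The listed genes held 44.7 to 69.9% of the TPM scale in the IPs and 12.2 to 19.0% in total RNA, so that before the medians were equalised the median gene was higher in IP by 2.40 (log2) with UPF1-1 and by 2.38 with UPF1-2. Setting the medians equal lowered the fitted recoveries given below by 2.56 with UPF1-1 and by 2.53 with UPF1-2, and those of single replicates by other amounts.

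RefSeq promoter windows on GRCh38.p14, each the 250 bases before an annotated start, were used where they lay wholly before the annotated gene, which held for 1 window each of 6 of the 8 subunit genes. The CCT5 window lay inside the gene and was left out, and CCT6A had no entry. The windows of TCP1, CCT3 and CCT8 are printed 5′ to 3′ on the gene's strand because these genes take different places in the results below. CCT3 was the most abundant subunit mRNA, TCP1 was among the least recovered with UPF1, and CCT8 was the subunit that differed in UPF1-1 total RNA. Capitals mark CGGAAG, the core recognised by ETS factors, and CCAAT, the core recognised by NF-Y, on either strand.
TCP1, chr6:159789603-159789852, minus strand: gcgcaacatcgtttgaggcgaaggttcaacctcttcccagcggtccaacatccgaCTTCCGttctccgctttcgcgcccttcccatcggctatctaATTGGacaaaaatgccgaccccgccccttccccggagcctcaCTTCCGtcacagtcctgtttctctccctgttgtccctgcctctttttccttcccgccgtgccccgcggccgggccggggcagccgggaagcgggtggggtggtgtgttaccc
CCT3, chr1:156338293-156338542, minus strand: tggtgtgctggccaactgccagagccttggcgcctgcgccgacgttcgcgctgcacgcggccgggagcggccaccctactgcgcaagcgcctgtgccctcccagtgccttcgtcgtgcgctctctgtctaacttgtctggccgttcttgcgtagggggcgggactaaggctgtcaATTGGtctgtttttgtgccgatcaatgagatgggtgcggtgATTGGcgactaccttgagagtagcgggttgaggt
CCT8, chr21:29073649-29073898, minus strand: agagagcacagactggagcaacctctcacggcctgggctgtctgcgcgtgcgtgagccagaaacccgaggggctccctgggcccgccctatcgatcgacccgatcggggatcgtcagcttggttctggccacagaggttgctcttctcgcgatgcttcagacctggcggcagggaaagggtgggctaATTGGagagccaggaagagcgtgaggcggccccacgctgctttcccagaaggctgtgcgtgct

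The 3 windows shared a CCAAT element in the reverse orientation, written ATTGG, once in TCP1 and CCT8 and 2 times in CCT3, whereas the reverse ETS core CTTCCG occurred 2 times in TCP1 and not in the CCT3 or CCT8 window. Over the 6 subunit genes, CGGAAG on either strand was found in 3 of 6 windows and in 16.8% of all 24882 windows that lie before their gene. CCAAT was found in 4 of 6 and in 33.4% of windows, and the GC box GGGCGG in 4 of 6 and in 41.7%. The heat shock element core GAANNTTC was found in 1 of 6, that of TCP1, and in 5.91% of windows. These motifs were chosen after the sequences had been seen, and none contains the letters of another. The 6 subunit windows had a median GC content of 61.4%, against 57.6% over all windows.

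The complex holds its subunits in equal numbers, but their listed mRNAs were not at equal levels. Each gene was listed with 1 transcript, and how far other transcripts of a gene would change the order was not tested. CCT3, the gamma subunit, led in all 9 total RNA libraries, and CCT7, the eta subunit, came next in all 9. CCT3 (ENSG00000163468) had 136, 131 and 168 TPM in UPF1-1 cells and 119, 117 and 178 TPM in UPF1-2 cells, against 128, 143 and 164 TPM in GFP cells. CCT7 (ENSG00000135624) had 111, 105 and 159 TPM in UPF1-1 cells and 91.9, 89.7 and 154 TPM in UPF1-2 cells, against 97.3, 108 and 148 TPM in GFP cells. The groups overlapped for both genes, and replicate 3 was the highest library of each group.

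CCT8 (theta), CCT5 (epsilon) and CCT2 (beta) followed without a fixed order. In GFP total RNA they averaged 92.9 ± 6.55, 92.0 ± 6.85 and 89.9 ± 5.75 TPM (SD, n = 3). CCT8 was above CCT5 in 4 of 9 total RNA libraries and in 2 of 3 of those from GFP cells. In UPF1-1 cells it was below CCT5 in each replicate, at 89.8, 83.7 and 73.4 against 97.6, 94.6 and 101 TPM. Its rank among the 8 ran from 3 to 6 in total RNA. CCT5 was above CCT2 in 4 of 9, so that this pair did not differ beyond its spread. TCP1, the alpha subunit, averaged 77.3 ± 10.7 TPM in GFP cells and was below CCT2 in 9 of 9 libraries, and CCT4, the delta subunit, averaged 69.8 ± 4.32 TPM and was below TCP1 in 9 of 9.

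CCT6A, the zeta subunit, was the least abundant of the 8 in all 9 total RNA libraries. CCT6A (ENSG00000146731) had 34.8, 33.5 and 40.8 TPM in UPF1-1 and 29.5, 31.1 and 58.4 TPM in UPF1-2, against 32.7, 36.3 and 46.7 TPM in GFP total RNA. The groups overlapped. Even so its GFP mean exceeded that of 96.1% of all listed genes, and CCT3 exceeded 98.7%. CCT6A has pseudogene copies, of which CCT6P1 and CCT6P3 were rows of the table, and reads shared between near-identical copies make its level uncertain.

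**Figure D1:**
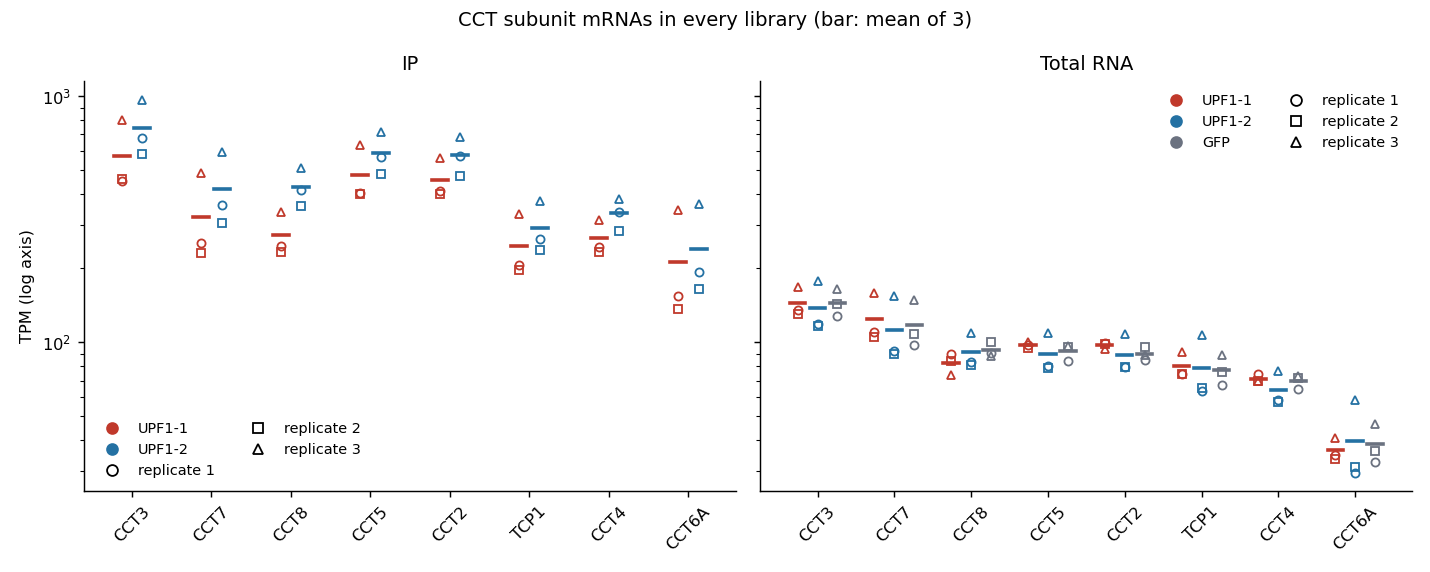
TPM of each CCT subunit gene (log axis) in the 15 libraries, with IP on the left and total RNA on the right. Points are libraries, with a shape for each replicate, colours are UPF1-1, UPF1-2 and GFP, and bars are means of 3. CCT3 leads in every group, and the IP values lie above the total RNA values before any adjustment of library medians.

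The plot of levels shows CCT3 and then CCT7 at the top and CCT6A at the bottom of total RNA in all 3 lines, with the places of CCT8, CCT5, CCT2 and TCP1 varying. As a sum, the subunits had 734 ± 54.5 TPM in UPF1-1 cells and 702 ± 172 TPM in UPF1-2 cells, against 723 ± 72.5 TPM in GFP cells (total RNA, SD, n = 3 each). Expressed as a share of the TPM of all listed genes, which removes most of the offset of replicate 3, the subunits held 0.481, 0.472 and 0.447% in UPF1-1 and 0.494, 0.477 and 0.475% in UPF1-2, against 0.489, 0.505 and 0.463% in GFP total RNA. These 3 groups overlapped.

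The first comparison asked whether expression of UPF1-1 changed the subunit mRNAs in the cell. With UPF1-1 against GFP, 1 of the 8 subunits fell and none rose, while 7.79% of the 9325 genes tested fell and 8.38% rose. The share among the subunits is near that background. The median difference of the 8 was -0.05, against -0.01 over all genes. It was also -0.05 over 330 other genes with a mean of 38.0 to 141 TPM in UPF1 total RNA, the range of the subunits. Of those 330, 6.06% fell and 9.39% rose.

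The subunit that fell was CCT8 (ENSG00000156261). It had 89.8, 83.7 and 73.4 TPM in UPF1-1 total RNA, against 90.4, 100.3 and 88.0 TPM in GFP total RNA. Each UPF1-1 library was below the GFP library of its number, by little in replicate 1, and the groups overlapped both as TPM and with medians equal. The difference was -0.26 ± 0.07 (SE, 95% interval -0.41 to -0.11), with an adjusted p of 0.029 by limma with Benjamini-Hochberg adjustment. The call rested on the full set of replicates, the block and the equal medians: limma's adjusted p was 0.063 without replicate 1, 0.18 without replicate 2, 0.055 without replicate 3, 1.00 without the replicate block and 0.52 without the equal medians, where the difference was -0.18. In the authors' deposited table the sleuth q-value of CCT8 for this contrast was 1.00, as it was for the other 7 subunits.

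The other 7 subunits did not pass. CCT6A was nearest, at -0.16 ± 0.06 (SE) with a limma adjusted p of 0.11. CCT3 was at -0.09 ± 0.06, CCT4 at -0.06 ± 0.06, TCP1 at -0.04 ± 0.05 and CCT2 at 0.02 ± 0.06, each with an adjusted p of 0.35 or more. CCT5 and CCT7 were within 0.01 of no difference, with SEs of 0.06 and 0.07. The 95% intervals of the 6 subunits other than CCT6A and CCT8 lay between -0.24 and 0.16.

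With UPF1-2 against GFP, none of the 8 subunits was called by limma (0 of 8), and CCT4 alone had an unadjusted p under 0.05. Of the 9325 genes tested, 1128 had an unadjusted limma p under 0.05. Few genes were called at all in this comparison, 0.279% of those tested higher, 0.0965% lower and 0.375% in either direction. All 8 estimates were negative, between -0.16 for CCT4 and -0.04 for TCP1, with a median of -0.07 against -0.02 over all genes. The median over the 330 other genes of like abundance was -0.06, near that of the subunits. CCT4 (ENSG00000115484) had 58.4, 57.3 and 76.7 TPM in UPF1-2 total RNA, against 64.9, 71.7 and 72.9 TPM in GFP total RNA. It was lower in replicates 1 and 2 and higher in replicate 3, and the difference with medians equal was -0.16 ± 0.06 (SE, limma adjusted p 0.30). CCT8 was at -0.06 ± 0.07. Without replicate 2 the estimates of TCP1, CCT2, CCT6A and CCT8 lay slightly above 0. The comparisons of UPF1-1 and UPF1-2 with GFP share the GFP libraries.

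Set directly against each other, UPF1-1 and UPF1-2 total RNA gave no call among the subunits (0 of 8) by limma, where 5.49% of all genes tested were higher, 4.02% lower and 9.51% called in either direction. CCT8 alone had an unadjusted p under 0.05, as had 2636 of the 9325 genes tested. CCT8 was at 89.8, 83.7 and 73.4 TPM in UPF1-1 and at 83.3, 81.0 and 109.5 TPM in UPF1-2. UPF1-1 was higher in numbers 1 and 2 and lower in number 3 on this scale. With medians equal the difference was -0.20 ± 0.07 (SE, limma adjusted p 0.089), and with upper-quartile scaling it was -0.24 with an adjusted p of 0.042. The largest estimate in the other direction was that of CCT7, 0.12 ± 0.07, which did not pass (limma adjusted p 0.27).

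**Figure D2:**
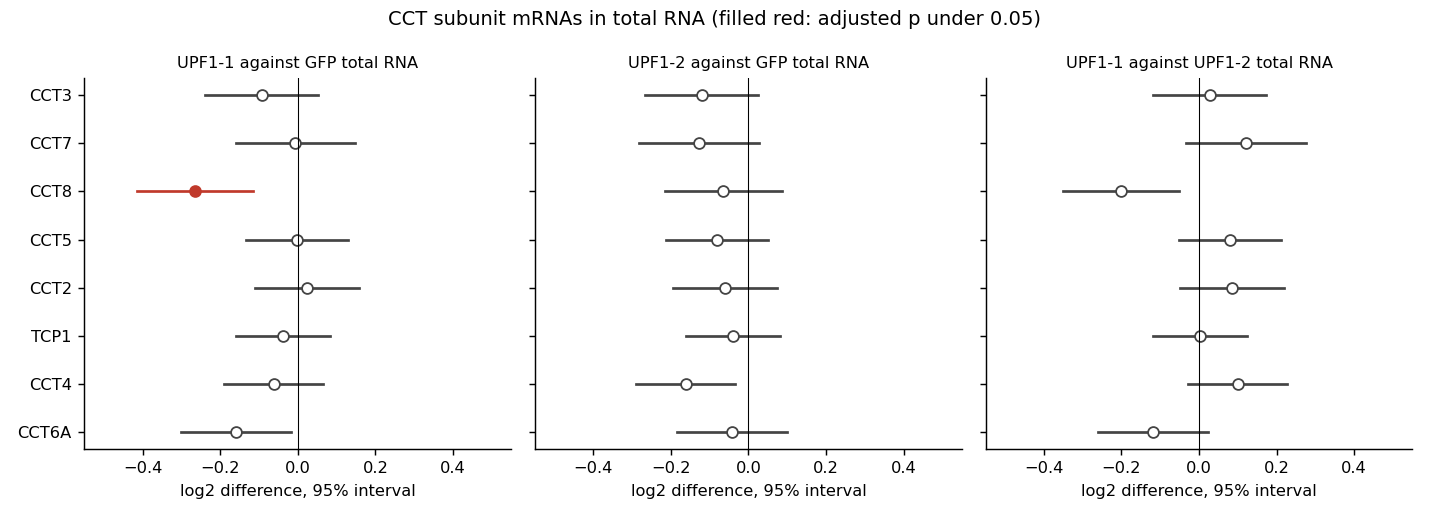
Log2 differences in total RNA with library medians equal for the 8 subunits, for UPF1-1 against GFP, UPF1-2 against GFP and UPF1-1 against UPF1-2. Points are limma estimates with 95% intervals, and filled red points have an adjusted p below 0.05, which holds for CCT8 in UPF1-1 against GFP only. Other estimates lie between -0.20 and 0.12.

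The plot of total RNA differences shows how small these values were: no subunit differed by more than 0.26 on the log2 scale in any of the 3 comparisons. The largest, for CCT8, corresponds to a level in UPF1-1 cells of 0.832 times that in GFP cells.

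The next comparison asked how much of each subunit mRNA was recovered with purified UPF1. All 8 were plainly present in both IPs. CCT3 was again first in all 6 IP libraries, with 452, 460 and 798 TPM in UPF1-1 IP and 679, 581 and 969 TPM in UPF1-2 IP. CCT2 and CCT5 took the next places in all 6, whereas CCT7, next after CCT3 in total RNA, ranked between 4 and 6.

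On the TPM scale every subunit was higher in IP than in total RNA, as were most listed genes. The authors' deposited ratios of IP to total TPM were 4.14, 4.24 and 6.27 for CCT5 with UPF1-1 and 7.06, 6.16 and 6.52 with UPF1-2. For CCT7 they were 2.29, 2.18 and 3.07 with UPF1-1 and 3.94, 3.42 and 3.84 with UPF1-2. The median ratio over all genes in the deposited table was 6.58, 6.34 and 7.98 with UPF1-1 and 7.91, 6.88 and 5.93 with UPF1-2, so that CCT7 was recovered less than the median gene in all 6 IPs although its ratio was above 1.

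Relative to the library medians, 7 of the 8 subunits fell in UPF1-1 IP against UPF1-1 total RNA, where 43.9% of the 11969 genes tested fell, 30.8% rose and 74.7% did either. Without the equal medians all 8 were higher in IP and the medians were 1.90 over the subunits and 2.40 over all genes, so the fall is a lesser recovery than that of the median gene. The subunits' median with medians equal was -0.66, against -0.16 over all genes. Abundant mRNAs as a class were lower: among 330 other genes with a mean of 38.0 to 141 TPM in UPF1 total RNA, the range of the subunits, 78.5% fell, with a median of -1.31. Total RNA level is also the denominator of the recovery, and its part in these values was not tested.

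The depth of the fall differed widely between subunits. CCT7 was lowest. Its log2 recovery relative to the medians was -1.25, -1.27 and -1.23 in the 3 UPF1-1 replicates, a limma difference of -1.25 ± 0.07 (SE, adjusted p 1.2e-06). TCP1 (ENSG00000120438) was next, with -0.98, -0.99 and -0.98, a difference of -0.98 ± 0.06 (adjusted p 2.3e-06). These 2 genes varied little between replicates. CCT8 followed at -0.85 ± 0.08 (adjusted p 2.8e-05), CCT4 at -0.68 ± 0.06 (adjusted p 2.1e-05) and CCT3 at -0.63 ± 0.07 (adjusted p 6.4e-05).

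CCT2 and CCT5 were the subunits nearest to the median gene among those called. CCT2 (ENSG00000166226) had 411, 400 and 561 TPM in UPF1-1 IP, against 99.0, 98.8 and 93.6 TPM in UPF1-1 total RNA, and its difference relative to the medians was -0.35 ± 0.07 (SE, limma adjusted p 0.0017). CCT5 (ENSG00000150753) had 404, 401 and 631 TPM in IP, against 97.6, 94.6 and 101 TPM in total RNA, and its difference was -0.30 ± 0.07 (adjusted p 0.0043). CCT6A did not pass: it had 154, 137 and 346 TPM in UPF1-1 IP, its recovery was -0.32, -0.37 and 0.22 over the replicates, and its difference was -0.16 ± 0.12 (adjusted p 0.26). Without replicate 3 CCT6A was called, at -0.35 with an adjusted p of 0.0023, and without replicate 1 the calls of CCT2 and CCT5 were lost, at adjusted p-values of 0.064 and 0.13. With a pseudocount of 1, which moves the library medians, CCT2 was at -0.14 and CCT5 at -0.10, and neither was called.

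With UPF1-2, the subunits were spread around the median gene. CCT7, TCP1 and CCT8 fell in IP relative to the medians and CCT5 rose, that is 3 and 1 of 8, where 44.2% of all genes fell, 31.5% rose and 75.7% did either, so the count of falls is near the background. Without the equal medians all 8 were higher in IP, with a median of 2.40 against 2.38 over all genes. The subunits' median with medians equal was -0.13, against -0.15 over all genes and -1.18 over the 330 other genes of like abundance.

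CCT7 recovery with UPF1-2 was -0.68, -0.72 and -0.51 over the replicates (difference -0.64 ± 0.07 SE, limma adjusted p 5.2e-05), and TCP1 recovery was -0.61, -0.63 and -0.65 (-0.63 ± 0.06, adjusted p 2.7e-05). CCT8 was at -0.30 ± 0.08 (adjusted p 0.0097). CCT5 recovery was 0.17, 0.13 and 0.25, a difference of 0.18 ± 0.07 that passed narrowly (adjusted p 0.046) and had the opposite sign, -0.04, with a pseudocount of 0.1. CCT2 was at 0.17 ± 0.07, CCT3 at -0.11 ± 0.07, CCT4 at -0.15 ± 0.06 and CCT6A at 0.04 ± 0.12, and none of these passed. Only CCT7 and TCP1 remained called by limma without replicate 1 or without replicate 2.

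**Figure D3:**
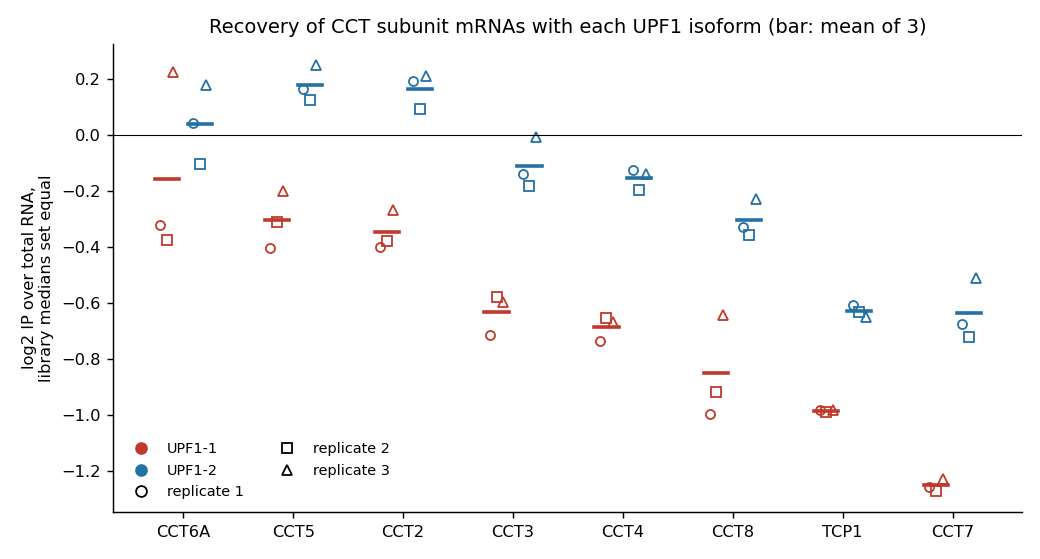
Recovery of each subunit, as the log2 ratio of IP to total TPM with library medians equal, for the 3 replicates with UPF1-1 and with UPF1-2. Points are replicates, bars are means of 3, and the line at 0 marks a gene that changed as the library medians did. CCT7 and TCP1 lie lowest with both isoforms, and before the medians were set equal every value was above 0.

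The order of the subunits was alike with both isoforms, as the plot of recovery shows. Over the 6 pairs of IP and total RNA, CCT2, CCT5 and CCT6A took places 1 to 3 in recovery each time. CCT3 took place 4 or 5, CCT4 places 4 to 6 and CCT8 places 5 to 7. TCP1 took places 6 to 8, and CCT7 place 7 or 8. The order did not separate the subunits by the ATP binding known from the yeast complex, in which the counterparts of TCP1, CCT2, CCT4 and CCT5 bind ATP more tightly than those of CCT3, CCT6A, CCT7 and CCT8: each of these sets held subunits from both ends.

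These unequal recoveries changed the make-up of the subunit mRNA pool, a view that needs no scaling between libraries. CCT7 made up 10.7, 10.0 and 12.8% of the summed subunit TPM in UPF1-1 IP, against 15.5, 15.3 and 20.0% in UPF1-1 total RNA. With UPF1-2 it made up 10.7, 10.6 and 12.9% in IP, against 15.8 ± 1.18% in total RNA (SD, n = 3). The IP and total RNA values of CCT7 did not overlap with either isoform.

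CCT5 moved the other way. It made up 17.0, 17.5 and 16.6% of the pool in UPF1-1 IP, against 13.6, 13.7 and 12.6% in total RNA, and 16.7, 16.8 and 15.6% in UPF1-2 IP, against 13.2, 13.1 and 12.2%. CCT2 likewise averaged 16.5 ± 1.55% in UPF1-1 IP, against 13.3 ± 1.35% in total RNA, and 16.1 ± 1.05% in UPF1-2 IP, against 12.8 ± 0.701% (SD, n = 3 each). TCP1 averaged 8.68 ± 0.0497% in UPF1-1 IP, against 10.9 ± 0.528% in total RNA, and 8.04 ± 0.257% in UPF1-2 IP, against 11.1 ± 0.712%.

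CCT3 kept about the same share throughout, 20.0 ± 0.947% in UPF1-1 IP against 19.6 ± 1.25% in total RNA, and 20.4 ± 0.591% in UPF1-2 IP against 19.6 ± 0.107%. CCT4 differed by less than its spread with both isoforms. The CCT8 groups overlapped with both, but within a number its share was lower in IP in 3 of 3 pairs with UPF1-1 and 3 of 3 with UPF1-2. CCT6A was higher in UPF1-1 IP at 6.48, 5.98 and 9.07%, against 4.86, 4.85 and 5.13% in total RNA, and overlapped between UPF1-2 IP and total RNA, where it was higher in IP in 3 of 3 pairs. With 3 libraries against 3 an unpaired permutation test could not go below 0.10, and one within the 3 pairs could not go as low. No test was made on these shares.

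**Figure D4:**
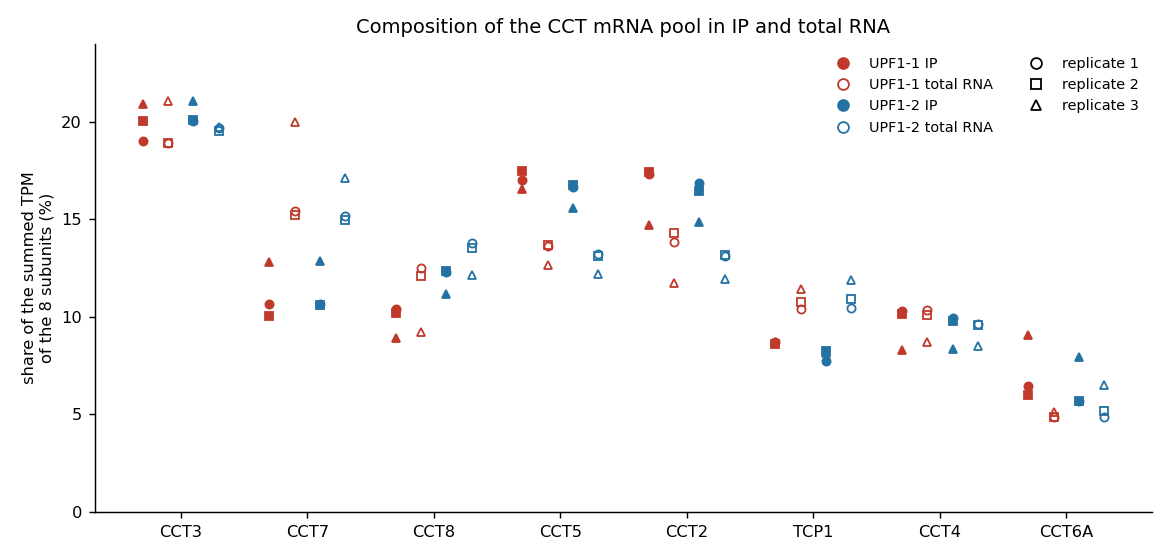
Share of each subunit in the summed TPM of the 8 subunits (percent), for UPF1-1 IP, UPF1-1 total RNA, UPF1-2 IP and UPF1-2 total RNA. Points are libraries, filled for IP and open for total RNA, with a shape for each replicate. CCT7 has a smaller share in the IPs, CCT2 and CCT5 a larger one, and CCT3 stays near 20.0%.

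The plot of pool shares leaves out GFP total RNA, in which CCT7 held 16.2 ± 2.13%, CCT5 12.7 ± 0.532% and TCP1 10.7 ± 0.440% (SD, n = 3), each within 1 SD of the UPF1-2 total RNA mean. Shares of 8 parts that sum to a whole are not independent of each other.

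The last comparison asked whether the isoforms differed in how much of the subunit mRNAs they recovered. The difference in recovery (UPF1-1 minus UPF1-2) was negative for all 8 subunits and passed for 7, while 6.27% of the 11969 genes tested were called lower and 4.43% higher. Its median was -0.52 over the subunits, against -0.04 over all genes. Among the 330 other genes of like abundance the median was -0.18, and 15.2% were lower. The calls rested on the replicate block, the equal medians and replicates 1 and 2: limma called 0 subunits without the block (4 at an unadjusted p under 0.05), without the equal medians (6), without replicate 1 (6) or without replicate 2 (7), and called 7 without replicate 3. An unadjusted limma p under 0.05 was found for 846 of 11969 genes without the block and for 1878 of 11969 without the equal medians. It was found for 1599 of 11904 genes without replicate 1 and for 2513 of 11897 without replicate 2. Adjusted p-values of the 7 subunits were 0.50 to 0.77 without the block. Wherever limma called 0 subunits it also called 0 of all genes tested.

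CCT7 had the largest difference in recovery, -0.61 ± 0.10 (SE, limma adjusted p 0.016), with a recovery of -1.25, -1.27 and -1.23 with UPF1-1 and of -0.68, -0.72 and -0.51 with UPF1-2. The isoforms' values did not overlap. Only 2.89% of all genes had a more negative difference. The difference was -0.55 ± 0.12 for CCT8 (adjusted p 0.029), -0.53 ± 0.09 for CCT4 (adjusted p 0.018), -0.52 ± 0.10 for CCT3 (adjusted p 0.022) and -0.51 ± 0.10 for CCT2 (adjusted p 0.021). It was -0.48 ± 0.10 for CCT5 (adjusted p 0.026) and -0.36 ± 0.09 for TCP1 (adjusted p 0.042). CCT6A was at -0.20 ± 0.17 and did not pass (adjusted p 0.48).

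The direction held within each replicate number. With medians equal the recovery was lower with UPF1-1 for 8 of 8 subunits in number 1, 8 of 8 in number 2 and 7 of 8 in number 3, with median differences of -0.58, -0.45 and -0.46. CCT6A in number 3 was the exception, at 0.04. Over all genes, 33.9% were lower in all 3 numbers, as were 7 of the 8 subunits.

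The IP values showed the same direction as deposited, without the equal medians. The TPM of every subunit was lower in UPF1-1 IP than in the UPF1-2 IP of the same number, 8 of 8 in all 3 numbers, as was true of 27.5% of the genes tested. CCT8, for example, had 247, 233 and 340 TPM in UPF1-1 IP and 418, 357 and 513 TPM in UPF1-2 IP, which did not overlap. CCT4 had 245, 233 and 316 TPM in UPF1-1 IP and 338, 283 and 383 TPM in UPF1-2 IP. The median log2 ratio of UPF1-1 to UPF1-2 IP over the 8 was -0.48 in number 1, -0.28 in number 2 and -0.28 in number 3.

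The total RNA underneath did not have one direction. Its subunit TPM was higher in UPF1-1 than in UPF1-2 for 8 of 8 subunits in numbers 1 and 2, with medians of 0.25 and 0.21, and lower for 7 of 8 in number 3, with a median of -0.17. The median gene of the total RNA libraries went the same way and was not particular to the subunits. It was at 1.76, 1.71 and 2.35 TPM in UPF1-1 and at 1.39, 1.55 and 2.96 TPM in UPF1-2. The ratios deposited by the authors combine the IP and total RNA values. Their log2 difference between the isoforms had medians of -0.78, -0.55 and -0.07 over the subunits in numbers 1, 2 and 3, and in number 3 it was negative for 6 of 8. On that scale 6 of the 8 subunits were lower with UPF1-1 in all 3 numbers, as were 19.1% of all genes, and number 3 stood apart from the others.

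As a share of all listed TPM, the subunits held 0.511, 0.497 and 0.545% in UPF1-1 IP and 0.687, 0.646 and 0.660% in UPF1-2 IP, and these values did not overlap. The shares in total RNA were 0.467 ± 0.0178% in UPF1-1 and 0.482 ± 0.0106% in UPF1-2 (SD, n = 3 each).

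**Figure D5:**
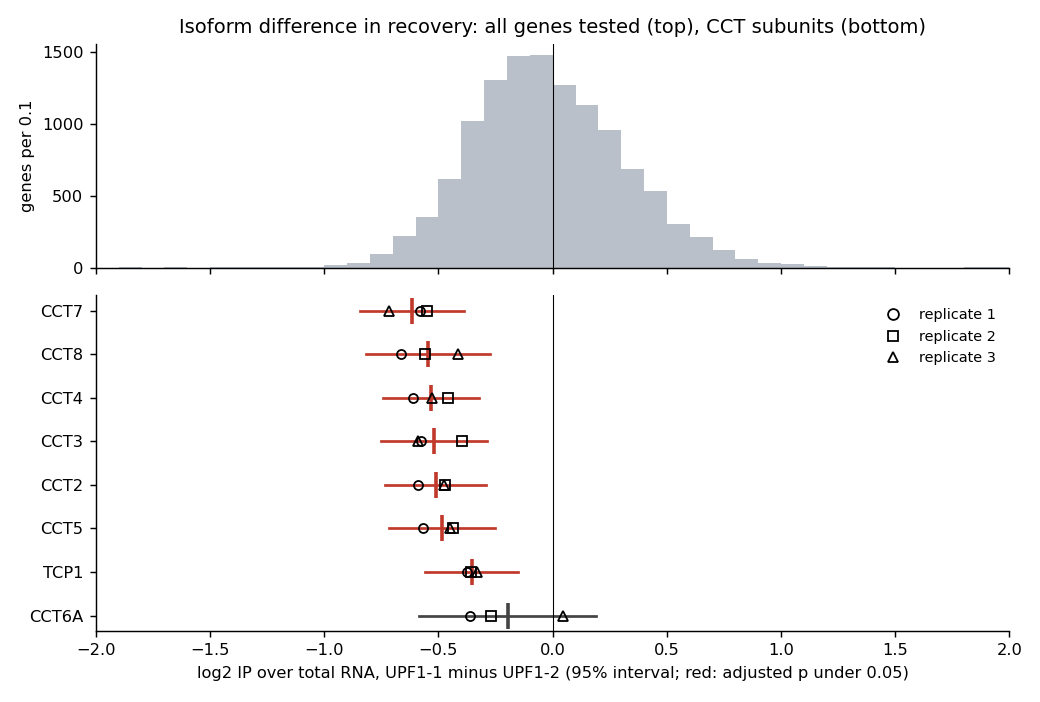
Difference in recovery between UPF1-1 and UPF1-2 (log2, library medians equal) for each subunit, with limma estimates (ticks), 95% intervals (lines) and each replicate number (points), below the distribution over the 11969 genes tested. All 8 estimates are negative, 7 have an adjusted p below 0.05, and CCT6A at -0.20 does not.

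The plot of isoform differences places the subunits in the lower part of the distribution over all genes. Of all genes, 4.60% lay below CCT8, 5.03% below CCT4, 5.41% below CCT3, 5.67% below CCT2, 6.73% below CCT5 and 14.9% below TCP1. CCT6A lay further in, with 31.0% below it.

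Genes that work with CCT were described for context, from lists made with earlier results of these data known. Of the prefoldin subunits and phosducin-like partners, 9 of 10 were in the table. In UPF1-1 IP against total RNA 4 of 9 rose and 5 fell relative to the medians, where 30.8% of all genes rose and 43.9% fell, with PFDN1 at 1.23 ± 0.09 (SE) and PFDN2 at -2.95 ± 0.10, and with UPF1-2 2 of 9 rose and 5 fell (31.5 and 44.2% of all genes), with the same genes at 1.46 and -2.55. Without the equal medians 8 of 9 were above 0 with each isoform, PFDN2 being the exception. Of the 11969 genes tested, limma then called 11464 higher in IP with UPF1-1 and 11485 with UPF1-2. None of the 9 was called for the isoform difference by limma (0 of 9, with 1 at an unadjusted p under 0.05, as had 3488 of 11969 genes). Of all genes 10.7% were called, so the count is near the background. The median isoform difference over this list was -0.21.

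Of the substrates, 20 of 21 were in the table. Relative to the medians 4 of 20 rose and 14 fell in UPF1-1 IP (30.8 and 43.9% of all genes), and 4 rose and 10 fell in UPF1-2 IP (31.5 and 44.2%). GNB4, a G protein beta subunit, was at 1.87 ± 0.09 with UPF1-1 and 1.60 ± 0.09 with UPF1-2, and the gamma-tubulin TUBG1 at -1.56 ± 0.08 and -1.08 ± 0.08. For the isoform difference 10 of 20 were lower with UPF1-1 and none higher, with a median of -0.46. Of all genes 6.27% were lower and 4.43% higher. Among genes of the subunits' abundance 15.2% were lower, but substrates such as ACTG1 (313 TPM in UPF1-1 total RNA) and FZR1 (2.90 TPM) lie outside that range. The substrates called lower included CDC20, which activates the anaphase-promoting complex, at -0.83 ± 0.11 (SE, limma adjusted p 0.015). The beta-tubulin TUBB4B was another, at -0.74 ± 0.10 (adjusted p 0.015). In total RNA the beta-tubulin TUBB6 was the 1 substrate of 20 called. It was higher in UPF1-1 than in GFP by 0.48 ± 0.06 (limma adjusted p 0.0014), where 8.38% of all genes were higher. Against UPF1-2 it was higher by 0.36 ± 0.06 (adjusted p 0.010), where 5.49% were. Tubulin and actin genes resemble each other in sequence, so that their levels share reads to an unknown degree.

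All 5 tubulin cofactors fell in UPF1-1 IP relative to the medians and 3 of 5 fell in UPF1-2 IP, where 43.9 and 44.2% of all genes fell, so that the second count is near the background. They were led by TBCB at -2.50 ± 0.08 with UPF1-1 and TBCA at -2.43 ± 0.10 with UPF1-2. TBCB, which acts on alpha-tubulin, was also lower in the isoform difference, at -0.62 ± 0.12 (SE, limma adjusted p 0.022), and was higher in UPF1-1 than in GFP total RNA by 0.42 ± 0.09 (adjusted p 0.014). In the wider chaperonin family, all 6 listed genes were in the table. HSPE1, the mitochondrial co-chaperonin, was at -2.21 ± 0.07 in UPF1-1 IP and at -1.83 ± 0.07 in UPF1-2 IP. It was the 1 of 6 called for the isoform difference, at -0.38 ± 0.10 (limma adjusted p 0.049), where 6.27% of all genes were lower. MKKS, a chaperonin-like Bardet-Biedl syndrome gene, rose in total RNA as the 1 of 4 tested. The rise was 0.47 ± 0.07 with UPF1-1 (limma adjusted p 0.0040), where 8.38% of all genes rose. With UPF1-2 it was 0.52 ± 0.07 (adjusted p 0.026), where 0.279% rose. Without the equal medians all recoveries of the 5 cofactors, the 6 chaperonin genes and the 20 substrates were above 0. Most genes were then higher in IP, with 11464 of 11969 called by limma with UPF1-1 and 11485 with UPF1-2.

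The copies of CCT6A were at far lower levels in total RNA than the subunit genes, and their recoveries lay above the library medians. CCT6P1 had 28.2 ± 2.35 TPM in UPF1-1 IP, against 1.63 ± 0.176 TPM in total RNA, and 24.4 ± 2.40 TPM in UPF1-2 IP, against 1.67 ± 0.553 TPM (SD, n = 3 each). CCT6P1 rose in IP relative to the medians by 1.19 ± 0.09 (SE) with UPF1-1 and by 1.02 with UPF1-2. CCT6P3 rose by 0.79 and 0.68. Its mean was 0.415 TPM in UPF1-1 and 0.429 TPM in UPF1-2 total RNA, below the 0.5 TPM added before taking logs. Of all genes, 30.8% rose with UPF1-1 and 31.5% with UPF1-2. Recovery of other genes at such low levels was not examined. Neither copy was called for the isoform difference by limma (0 of 2, with 0 at an unadjusted p under 0.05), where 10.7% of all genes were. Of the 11969 genes tested, 3488 had an unadjusted limma p under 0.05. How far reads of these copies enter the CCT6A value was not tested.

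Across libraries, with medians equal, the subunits moved together unevenly. Over the 28 pairs of subunits and all 15 libraries, Pearson's r had a median of 0.73, with a maximum of 0.98 for CCT2 and CCT5 and a minimum of 0.09 for CCT2 and CCT6A. Within the 9 total RNA libraries the median was 0.70 and the lowest value was -0.39, for CCT7 and CCT8, and within the 6 IP libraries the median was 0.88. The genes whose profile over all 15 libraries was most like the mean of the subunits were HNRNPC (r = 0.98), PGK1 (0.97), VIM (0.96), GNB2L1 (0.96) and EIF3H (0.95), out of 7346 genes compared. Over the 9 total RNA libraries they were TRIT1 (0.99), LTA4H, ADH5, COPS3 and RPL23 (0.98 each). These values are descriptions, since all points share the libraries, the scaling and, over all 15, the contrast between IP and total RNA.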

How the data were processed

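TPM values, per the file headers, were deposited by the authors for 15 libraries and 12261 genes, each with 1 transcript. The submitters' processing notes name cutadapt, kallisto, sleuth and hg19 as the build, and versions are not given in the sources used here. The authors' table also held the ratio of IP to total TPM, log2 fold columns, sleuth p-values and q-values, and, both as natural log values, effects and mean estimated counts, per the file headers. The recomputed ratios equalled the deposited ones in 100% of entries within 1e-06. Read depth per library is not known from TPM, so no counting interval is given; the authors' mean natural log of estimated counts was 9.31 to 10.7 for the subunits.

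Values were analysed as log2(TPM + 0.5), keeping genes that reached 1 TPM in 3 or more of the libraries fitted. Library medians were set equal. The model was limma's (version 3.58.1, R 4.3.3), with a mean-variance trend. Total RNA (9 libraries, 9325 genes) had the replicate number as a block, and the IP fit (12 libraries, 11969 genes) the isoform with its replicate number. Tests were 2-sided, with Benjamini-Hochberg adjustment over all genes tested and a threshold of 0.05. The fits were also run on simulated data with independent residuals. That setting differs from these libraries, in which replicate 3 stood apart, and it cannot show how reliable the calls that need the block are. After group means were removed, the correlation of same-numbered libraries was 0.70 to 0.95 in total RNA (9 pairs) and 0.57 to 0.91 in the IP fit (18 pairs), and that of numbers 1 and 2 of different groups was similar, at 0.64 to 0.80 and 0.59 to 0.74, so that the check chiefly sets replicate 3 apart. The pairing of IP with total RNA comes from the deposited ratios, formed within a number. The labels do not say whether replicates were separate cultures, so p-values measure only the spread between these samples. There were 10 alternatives: no block, no centring, both, upper-quartile scaling, pseudocounts of 0.1 and 1, no filter, and each replicate left out.

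Genes named were the 8 subunits, UPF1, the called genes with the largest rise and fall in a related list (at most 2 per list and comparison), and the 5 genes most like the subunits' mean profile among those with a mean of at least 5 TPM. The subunits, the lists and the fit were chosen with earlier results of these data known. Promoter sequences are RefSeq windows on GRCh38.p14, matched by symbol and kept where they lay before the annotated gene, and no coordinates of the deposited table were used.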

Additional observations from a re-analysis of the deposited data

Results flagged for a closer look

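The difference between the isoforms in recovery with UPF1, tested as an interaction in limma's blocked fit with library medians equal, passed for 7 of the 8 CCT subunits. The log2 difference (UPF1-1 minus UPF1-2) was -0.36 for TCP1, -0.51 for CCT2, -0.52 for CCT3, -0.53 for CCT4, -0.48 for CCT5, -0.61 for CCT7 and -0.55 for CCT8. Adjusted p-values by limma with Benjamini-Hochberg adjustment lay between 0.016 and 0.042. Each of the 7 was lower with UPF1-1 in 3 of 3 replicate numbers, as were 33.9% of all genes. The calls were made on these same replicates, so their direction is not separate evidence. Of all genes tested, 10.7% were called in either direction and 6.27% lower, and 15.2% were lower among 330 other genes of like abundance. The difference was not particular to the subunits: 10 of 20 CCT substrates were also lower. None of the 7 calls was kept by limma without replicate 1 or without replicate 2, where the subunits with an unadjusted p under 0.05 numbered 6 and 7. Over all genes tested, 1599 of 11904 and 2513 of 11897 had such a p in these 2 fits.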

How the results depend on the processing

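The count of CCT subunits called by limma in UPF1-1 against GFP total RNA was 1, and it was 0 without the replicate block, without the equal medians, without both, and with each replicate left out (0 to 0). In UPF1-1 against UPF1-2 total RNA it was 0, and 1 with upper-quartile scaling. In UPF1-1 IP against total RNA, 7 subunits were lower, and without the equal medians 8 were higher, with or without the block. In UPF1-2 IP against total RNA the count was 4, it was 2 without the replicate block and 2 to 5 with a replicate left out, and without the equal medians 8 were higher. With the block and without the equal medians, 11464 of 11969 genes were called higher in UPF1-1 IP and 11485 in UPF1-2 IP. For the isoform difference the count of subunits called was 7, and 0 without the replicate block (4 at an unadjusted p under 0.05), without the equal medians (6) or without both (0), and 0 to 7 with a replicate left out. For this difference, 846 of 11969 genes had an unadjusted limma p under 0.05 without the block. The number was 1878 without the equal medians and 340 without both. All genes called for that difference, 530 higher and 750 lower, became 846 and 459 with upper-quartile scaling, 0 without the block or the equal medians, and 523 and 581 without replicate 3. In total RNA the calls for UPF1-1 against GFP were 781 higher and 726 lower, 638 and 976 with upper-quartile scaling, 266 and 35 without the equal medians and 11 and 5 without the block; for UPF1-1 against UPF1-2 they were 512 and 375, 347 and 591, 74 and 15, and 0 and 0. For UPF1-2 against GFP they were 26 and 9, and 2 and 1 without the block.

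Single subunits changed sign as follows; the cause was not tested. Without the equal medians, with or without the block, UPF1-1 against GFP was 0.051 for TCP1, 0.027 for CCT4, 0.087 for CCT5 and 0.083 for CCT7. UPF1-1 recovery was then 1.58 for TCP1, 2.21 for CCT2, 1.93 for CCT3, 1.88 for CCT4, 2.26 for CCT5, 2.40 for CCT6A, 1.31 for CCT7 and 1.71 for CCT8, and UPF1-2 recovery 1.90 for TCP1, 2.42 for CCT3, 2.38 for CCT4, 1.89 for CCT7 and 2.22 for CCT8. With upper-quartile scaling, CCT2 was -0.0051 in UPF1-1 against GFP, TCP1 -0.040 and CCT3 -0.014 in UPF1-1 against UPF1-2, and CCT6A -0.077 in UPF1-2 recovery. A pseudocount of 1 gave 0.0099 for CCT5 and 0.0052 for CCT7 in UPF1-1 against GFP, 0.041 for CCT6A in UPF1-1 recovery, and 0.11 for CCT3 and 0.062 for CCT4 in UPF1-2 recovery. A pseudocount of 0.1 gave -0.056 for CCT2, -0.041 for CCT5 and -0.17 for CCT6A in UPF1-2 recovery and -0.012 for TCP1 in UPF1-1 against UPF1-2. With no filter, CCT5 was 0.022 and CCT7 0.017 in UPF1-1 against GFP. With a replicate left out, UPF1-1 against GFP was -0.020 to 0.024 for CCT5 and -0.037 to 0.031 for CCT7. UPF1-2 against GFP was -0.071 to 0.0068 for TCP1, -0.099 to 0.0077 for CCT2, -0.065 to 0.0026 for CCT6A and -0.094 to 0.015 for CCT8. UPF1-1 against UPF1-2 was -0.029 to 0.033 for TCP1 and -0.053 to 0.092 for CCT3, and UPF1-2 recovery of CCT6A was -0.043 to 0.10. For the isoform difference no subunit changed sign under any of the 10 alternatives.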
